A study of Caenorhabditis elegans with 10 samples.

Results

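The 8 genes oma-1, oma-2, pos-1, mex-5, mex-6, spn-4, puf-5 and puf-11 encode RNA-binding proteins of the oocyte and early embryo of Caenorhabditis elegans. They were chosen by name, and the names of the deposited rows were matched to them, so that they are 8 of 46770 genes in the tables. The samples were whole worms of strain F01D4.5(baf20), named after the gene F01D4.5, and of N2, the standard laboratory wild type. Both strains were fed OP50 Escherichia coli at 20 °C for 48 hours from L1 arrest, and 1000 to 2000 worms were pooled per sample. Each strain gave 5 libraries of messenger RNA, called biological replicates by the submitters. The labels give neither the change in F01D4.5 nor whether the line is a single clone.

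An oocyte stores messenger RNAs that are kept silent until they are needed, and proteins that bind their 3′ ends set when and where each is translated. The germ line, in which this store is built, makes up much of an adult hermaphrodite. OMA-1 and OMA-2 are zinc finger proteins that repress maternal messages and act redundantly in oocyte maturation, after which they are degraded. POS-1, MEX-5 and MEX-6 carry the same type of zinc finger. MEX-5 and MEX-6 act at the front of the zygote to keep germ-line proteins at the rear, and POS-1 acts in the posterior cells. SPN-4 has an RNA recognition motif and acts in spindle orientation and cell fate in the embryo. PUF-5 and PUF-11 belong to the Pumilio family and act late in oogenesis.

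Total counts were 9059910 to 11056979 per library, and 3 counts corresponded to 0.271 to 0.331 CPM (counts scaled to library size, counting error only). F01D4.5 itself averaged 3.23 ± 0.738 CPM in F01D4.5(baf20) worms and 10.8 ± 2.93 CPM in N2 worms (SD, n = 5 each), with no overlap, so that no library went against its label. On the log2 scale that was −1.74 (SE 0.241, edgeR adjusted p = 0.0264). That call was lost in 8 of the 10 fits that left out 1 library, with adjusted p up to 0.130 and log2 fold changes of −1.88 to −1.61 over the 10, and with F01D4.5(baf20) replicates 1 and 2 added together (−1.73, adjusted p = 0.132 by edgeR). F01D4.5 has 2 rows in the count table, whose shared reads the counting may have dropped, and the lower of them held 3 counts in F01D4.5(baf20) and 12 counts in N2 worms over all libraries. The largest source of variation, 56.2% of the variance of log2 CPM, set the libraries numbered 5 of both strains apart from the other 8. They lay at 66.9 in F01D4.5(baf20) and 76.1 in N2 worms. The other 8 were not alike on it either. N2 replicates 2 to 4 lay at −2.3 to 7.99, and N2 replicate 1 and F01D4.5(baf20) replicates 1 to 4 at −40.9 to −21.9. Within strains, the libraries that differed least were replicates 1 and 2 of F01D4.5(baf20), with a chi-square of 2.23 per degree of freedom. Replicates 3 and 4 of F01D4.5(baf20) were the next pair, at 5.95. Between replicates 1 or 2 and replicates 3 or 4 of that strain it was 22.5 to 27.5. The tests took all 5 libraries of a strain as independent samples.

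7 of the 8 genes had 1 row each in the tables, and the annotation lists 1 transcript and no overlapping gene for each of them. In a single library they held between 1923 and 11452 counts, which alone would give a counting error of 0.934% to 2.28%. spn-4 was the exception. It lies on the minus strand of chromosome V at 6783187 to 6784903 (WBcel235, Ensembl release 115), overlaps ZC404.15 on the opposite strand, and had 2 rows in the tables. Those rows together held 2 counts over the 5 F01D4.5(baf20) libraries and 1 count over the 5 N2 libraries. Both are under 3 counts, so no fold is given and spn-4 could not be tested. Other genes with several rows were also thinly counted. Of 147 related genes looked up in 10 lists, 77 of the 87 with 1 row had enough counts for a test, against 35 of the 60 with more than 1 row. 12 of the 14 that had 0 counts in every library had more than 1 row, among them lin-41 and mex-1, which encode further regulators of maternal messages. The sources used here do not say how reads shared between rows were counted, so the near-absence of spn-4 counts is no measure of its RNA.

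In none of the 7 tested genes did the strains differ by more than the spread between libraries. All 7 had a higher mean in F01D4.5(baf20) worms, by 1.12-fold to 1.26-fold, and in all 7 the strains overlapped, where 1.43% of all tested genes had strains that did not overlap. 0 of 7 passed an adjusted p of 0.05 in edgeR's quasi-likelihood test, where 0.0649% of 12335 tested genes passed. 0 of 7 had an unadjusted p under 0.05 either, where 5.75% of the tested genes did. DESeq2 also called 0 of 7, where it called 0.268% of the tested genes. The median log2 fold change of the 7 was 0.22, against 0.02 over all tested genes, of which 53.2% were positive. In bulk RNA from whole worms, a difference in the number of oocytes and a difference in RNA per oocyte cannot be told apart.

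Both zinc finger genes of oocyte maturation were abundant in every library. oma-1 (chromosome IV, 8888976 to 8890999, plus strand) had 424, 414, 500.0, 462 and 285 CPM in F01D4.5(baf20) replicates 1 to 5, against 459, 399, 359, 373 and 199.7 CPM in N2 replicates 1 to 5. oma-2 (chromosome V, 8029439 to 8031214, plus strand) had 457, 387, 601, 561 and 240.2 CPM in F01D4.5(baf20) worms, against 551, 431, 388, 369.7 and 205 CPM in N2 worms. In both genes replicate 5 was the lowest library of its strain, and the other 4 libraries of each strain overlapped. The fitted log2 fold change was 0.22 for oma-1 (SE 0.213, 95% interval −0.25 to 0.69, adjusted p = 0.929 by edgeR). For oma-2 it was 0.21 (SE 0.284, 95% interval −0.42 to 0.84, adjusted p = 0.940 by edgeR). Of the 7 genes, oma-2 had the widest interval.

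The zinc finger genes that act in the embryo also had their lowest library in replicate 5 of each strain. pos-1 (chromosome V, 8414086 to 8415254, plus strand) had 623, 549, 813, 779 and 383 CPM in F01D4.5(baf20) replicates 1 to 5, against 679, 535, 498, 489 and 301 CPM in N2 replicates 1 to 5. Its log2 fold change of 0.33 was the highest of the 7 (SE 0.237, 95% interval −0.19 to 0.85, adjusted p = 0.903 by edgeR). F01D4.5(baf20) replicates 3 and 4 lay above all N2 libraries, and the other 3 did not. mex-5 (chromosome IV, 13353723 to 13356104, plus strand) had 753, 705, 1022, 847 and 559 CPM in F01D4.5(baf20) worms, against 846, 848, 668, 751 and 371 CPM in N2 worms. mex-6 (chromosome II, 9524174 to 9526359, plus strand) had 435, 395, 571, 497 and 268 CPM in F01D4.5(baf20) worms, against 494, 467, 362, 398 and 205 CPM in N2 worms. These were the lowest folds of the 7, with log2 fold changes of 0.16 for mex-5 (SE 0.226, adjusted p = 0.944 by edgeR) and 0.17 for mex-6 (SE 0.249, adjusted p = 0.945 by edgeR). For mex-5 the log2 fold change was −0.002 without N2 replicate 5, and 0.09 without both libraries numbered 5.

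Of the Pumilio genes, puf-5 had the highest mean CPM of the 7 genes in both strains. puf-5 (chromosome II, 8575541 to 8577787, plus strand) had 917, 784, 1066, 1029 and 431 CPM in F01D4.5(baf20) replicates 1 to 5, against 958, 797, 748, 714 and 406 CPM in N2 replicates 1 to 5. puf-11 (chromosome IV, 6421585 to 6423497, plus strand) had 459, 433, 529.8, 498 and 303 CPM in F01D4.5(baf20) worms, against 490.4, 349.5, 376, 339.8 and 239 CPM in N2 worms. In puf-11 a single N2 library, replicate 1, reached the level of the F01D4.5(baf20) replicates 1 to 4. The fitted value was 0.31 on the log2 scale (SE 0.194, 95% interval −0.12 to 0.74, adjusted p = 0.899 by edgeR), the narrowest interval of the 7. For puf-5 it was 0.22 (SE 0.265, 95% interval −0.36 to 0.81, adjusted p = 0.939 by edgeR). Over all 7 genes the intervals reached from 0.747-fold to 1.81-fold, so that a larger change in either direction lay outside them. puf-11 and puf-3, a close relative, may share reads that the counting could not assign.

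**Figure D1:**
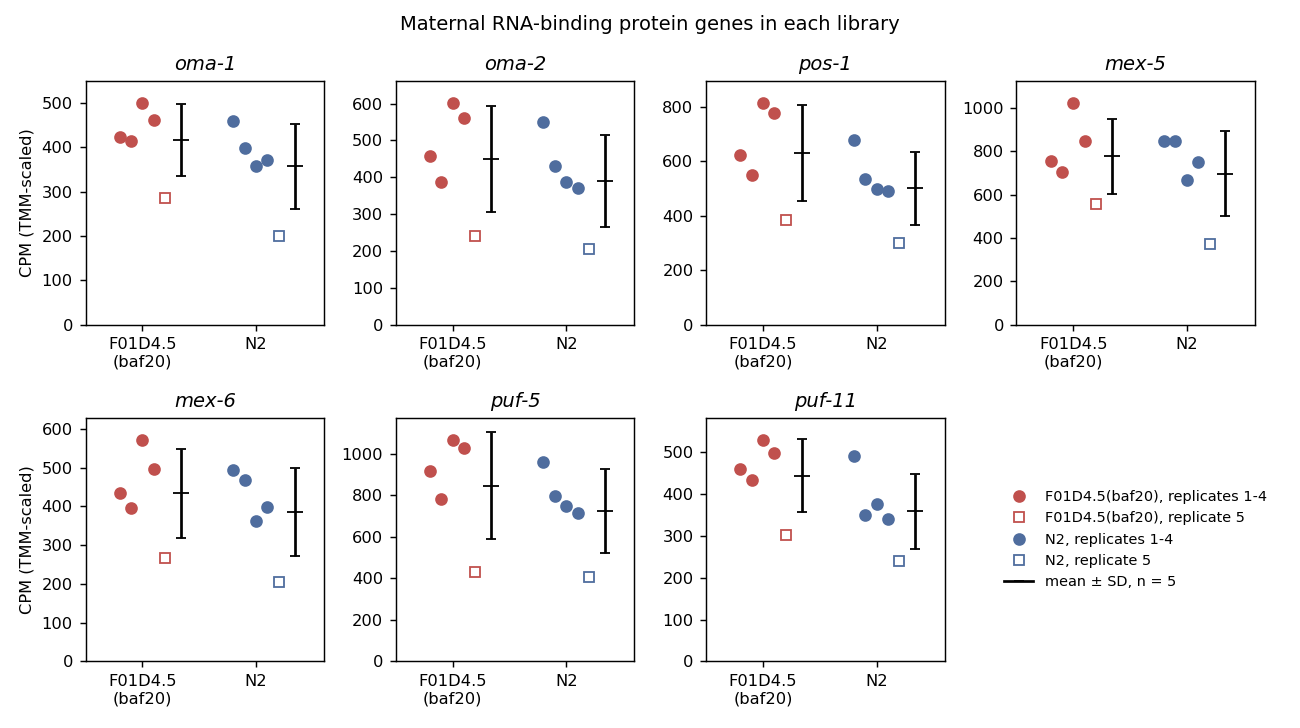
CPM (TMM-scaled counts, linear axes from 0) of the 7 tested genes in each of 10 libraries, with F01D4.5(baf20) at the left and N2 at the right of each panel. Open squares are the libraries numbered 5, black bars the mean ± SD (n = 5). Replicate 5 was the lowest library of its strain in all 7 genes of both strains, and the strains overlapped in every panel.

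The spread between libraries was shared by the 7 genes and was larger than the strain difference. Their coefficient of variation was 19.5% to 32.1% among F01D4.5(baf20) libraries and 25.1% to 32.1% among N2 libraries. In F01D4.5(baf20) worms, replicate 3 was the highest library for 7 of 7 genes and replicate 5 the lowest for 7 of 7. In N2 worms, replicate 1 was the highest for 6 of 7 (for mex-5 it was replicate 2, at 848 against 846 CPM) and replicate 5 the lowest for 7 of 7. F01D4.5(baf20) replicate 5 stood at 45.4% to 67.1% of the mean of the other 4 libraries of its strain, and N2 replicate 5 at 47.1% to 61.5%. Summed over the 7 genes, replicates 1 to 5 had 4068, 3668, 5103, 4673 and 2468 CPM in F01D4.5(baf20) worms, against 4477, 3827, 3398, 3435 and 1927 CPM in N2 worms. The highest N2 library thus lay above the F01D4.5(baf20) replicates 1, 2 and 5.

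Without both libraries numbered 5, the standard errors shrank to 0.0976 to 0.161 and the log2 fold changes were 0.09 to 0.33. puf-11 then had a log2 fold change of 0.30 (SE 0.121, unadjusted p = 0.0295, adjusted p = 0.272 by edgeR) and pos-1 one of 0.33 (SE 0.145, unadjusted p = 0.0452, adjusted p = 0.312 by edgeR). These were 2 of 7 genes at an unadjusted p under 0.05, where 15.4% of 12309 genes were. None of the 7 passed the adjusted threshold, which 0.146% of those genes passed.

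Levels between genes were compared per length, as CPM per kb of exon. pos-1 had the highest level, with 564 ± 157 CPM per kb in F01D4.5(baf20) worms and 448 ± 121 CPM per kb in N2 worms (SD, n = 5 each). It was above puf-5, the next in order, in 10 of 10 libraries, on average 1.34-fold. puf-5 had 408 ± 124 and mex-5 394 ± 87.1 CPM per kb in F01D4.5(baf20) worms, against 350.2 ± 97.1 for puf-5 and 353 ± 99.6 for mex-5 in N2 worms. Those neighbours did not differ beyond their spread, as puf-5 was the higher in 6 of 10 libraries. mex-5 stood above oma-2 in 10 of 10 libraries, by 1.40-fold. oma-2, puf-11, mex-6 and oma-1 followed, at 229 to 291 CPM per kb in F01D4.5(baf20) worms and 198.7 to 252 CPM per kb in N2 worms. Among these 4, each was above the next in 7, 8 and 5 of 10 libraries. All 7 genes ranked among the top 5.67% of 12234 genes by level per kb, pos-1 at rank 260 and oma-1 at rank 694. The 7 genes have 1 row each in the count table, whereas 5524 genes have more than 1 and may be undercounted, which would make these ranks too high.

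**Figure D2:**
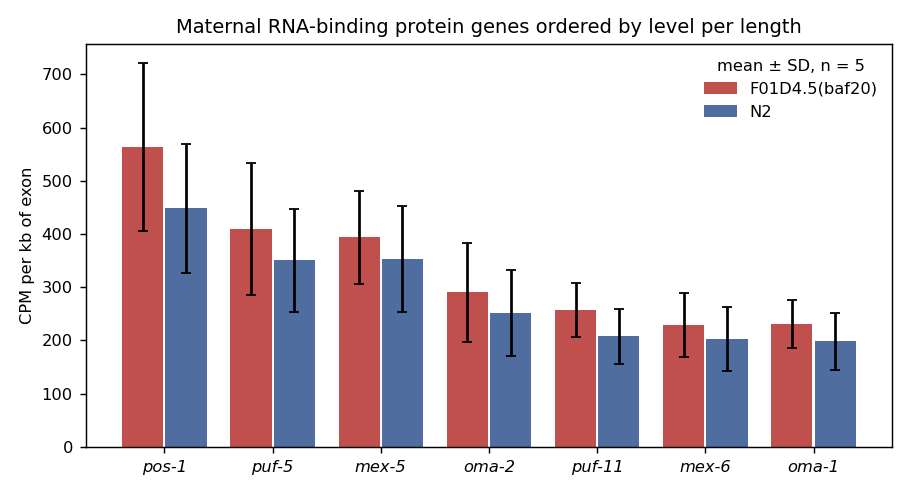
Mean level per length (CPM per kb of exon, linear axis from 0) of the 7 genes, ordered by their mean over 10 libraries, in F01D4.5(baf20) (red, left bars) and N2 (blue, right bars). Error bars are the SD of 5 libraries. pos-1 stands highest at 564 CPM per kb in F01D4.5(baf20) and 448 CPM per kb in N2 worms, and the last 4 genes lie close together.

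Ratios of related genes, taken within a library, do not depend on its scaling. The ratio of oma-1 to oma-2 counts was on average 0.958 in F01D4.5(baf20) worms and 0.931 in N2 worms. The log2 ratio was −0.06 ± 0.231 in F01D4.5(baf20) worms and −0.10 ± 0.105 in N2 worms (SD, n = 5 each, exact two-sided permutation test, p = 0.754, adjusted over 4 ratios p = 0.992). mex-5 had 1.81 times the counts of mex-6 in both strains. Its log2 ratio was 0.86 ± 0.116 in F01D4.5(baf20) worms and 0.86 ± 0.0527 in N2 worms (exact permutation test, p = 0.992, adjusted p = 0.992).

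Among the Pumilio genes, puf-5 had 1.84 times the counts of puf-11 in F01D4.5(baf20) worms and 1.995 times in N2 worms, a difference in log2 ratio of −0.11 (exact permutation test, p = 0.429, adjusted p = 0.857). puf-11 had 0.811 times the counts of puf-3 in F01D4.5(baf20) worms and 0.772 times in N2 worms, a difference of 0.07 (exact permutation test, p = 0.111, adjusted p = 0.444). With 5 against 5 libraries the smallest possible p was 0.00794. In no ratio did the strains separate. The puf-5 to puf-11 log2 ratio was lowest in replicate 5 of both strains, at 0.51 in F01D4.5(baf20) and 0.77 in N2 worms, against 0.86 to 1.05 in the other F01D4.5(baf20) and 0.97 to 1.19 in the other N2 libraries.

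**Figure D3:**
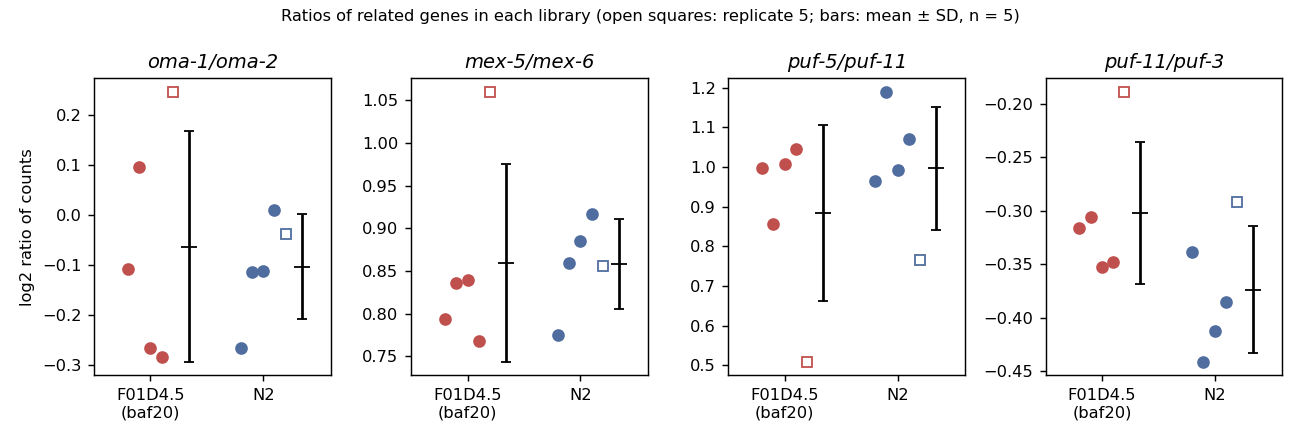
log2 ratio of counts of related genes in each library, F01D4.5(baf20) left and N2 right in each panel. Open squares are the libraries numbered 5 and black bars the mean ± SD (n = 5), and the vertical axes differ and do not start at 0. The strains overlap in all 4 ratios, and F01D4.5(baf20) replicate 5 is at an extreme in each.

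Other genes of the same pathway were taken from lists that had been put together with earlier results of these data known. In edgeR's test 0 genes of any of these lists passed the adjusted threshold in either direction, where 0.0649% of all tested genes passed. Counts of positive genes stand beside 53.2% positive among all tested genes. Of 31 further regulators of germ-line and maternal messages, 23 were tested, with 17 positive and a median log2 fold change of 0.06. The smallest unadjusted p belonged to fog-3, which directs germ cells to sperm, with 5.07 ± 0.732 CPM in F01D4.5(baf20) worms and 2.99 ± 0.867 CPM in N2 worms (log2 fold change 0.75, adjusted p = 0.659 by edgeR). cpb-3, which encodes a cytoplasmic polyadenylation element binding protein, had 401 ± 70.7 CPM in F01D4.5(baf20) worms and 336 ± 87.9 CPM in N2 worms (adjusted p = 0.922 by edgeR). puf-3 had 553 ± 128 CPM in F01D4.5(baf20) worms and 466 ± 118 CPM in N2 worms (adjusted p = 0.926 by edgeR).

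Kinases, polarity proteins and turnover factors that act on OMA-1, MEX-5 or their relatives had a median of 0.08. Of these, 12 of 16 tested genes were positive, where 53.2% of all tested genes were. cdk-1, the mitotic and meiotic cyclin-dependent kinase, had 9.77 ± 2.12 CPM in F01D4.5(baf20) worms and 15.01 ± 3.53 CPM in N2 worms (log2 fold change −0.62, adjusted p = 0.771 by edgeR). It was counted in 2 rows. egg-4, which encodes a pseudophosphatase that holds the kinase MBK-2 at the egg surface, had 80.7 ± 15.2 CPM in F01D4.5(baf20) worms and 67.6 ± 16.3 CPM in N2 worms (adjusted p = 0.906 by edgeR). Messages that these proteins regulate had a median of 0.16, with 6 of 10 tested genes positive. nos-2, a nanos gene translated in the primordial germ cells, had 2.43 ± 0.801 CPM in F01D4.5(baf20) worms and 1.73 ± 0.288 CPM in N2 worms (log2 fold change 0.49, adjusted p = 0.890 by edgeR). It too was counted in 2 rows, and all 5 N2 libraries lay inside the range of the F01D4.5(baf20) libraries. rnf-5, a ubiquitin ligase gene, had 91.4 ± 7.78 CPM in F01D4.5(baf20) worms and 82.2 ± 5.66 CPM in N2 worms (adjusted p = 0.899 by edgeR).

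**Figure D4:**
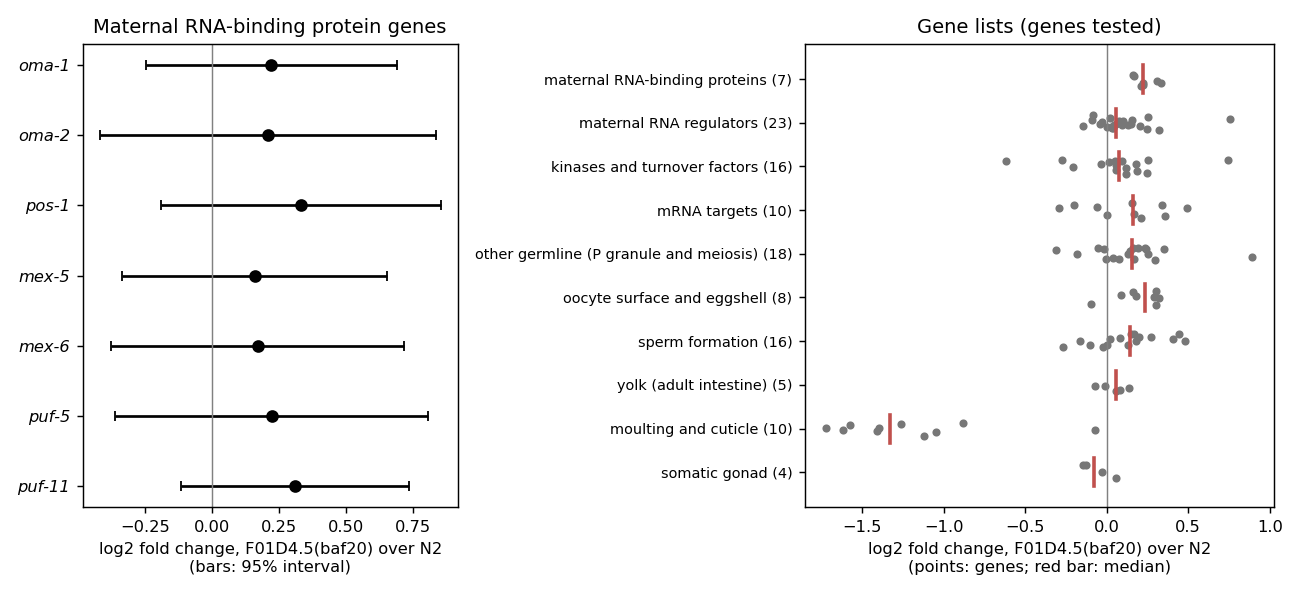
Left, log2 fold change of F01D4.5(baf20) over N2 for the 7 genes with 95% intervals, all of which include 0. Right, log2 fold changes of the tested genes of each list (points) with the list median (red bar) and the number tested in brackets. The 7 genes have a median of 0.22, near the 0.24 of oocyte surface and eggshell genes, and moulting and cuticle genes a median of −1.33.

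Genes of other cell types and stages were read from the same libraries. Oocyte surface and eggshell genes, 7 of 8 positive with a median of 0.24, had summed levels of 5368 to 10377 CPM in F01D4.5(baf20) worms and 3992 to 9056 CPM in N2 worms. The lowest value in each strain was again replicate 5. rme-2, the oocyte yolk receptor, had 4 rows in the tables and 0 counts in every library. Among P granule and meiosis genes 13 of 18 were positive, with a median of 0.15, where 53.2% of all tested genes were positive. Of the sperm formation genes 12 of 16 lay above 0, at a median of 0.14, and the 4 tested somatic gonad genes had a median of −0.08. The yolk genes vit-1 to vit-5, expressed in the adult intestine, had a median of 0.06.

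Early embryonic genes were scarce. The whole list of 11 summed to 5.13 to 10.4 CPM in F01D4.5(baf20) worms and 3.61 to 8.28 CPM in N2 worms. med-1 and hlh-27 had 0 counts in every library, and 2 of the 11 genes could be tested. end-3, an endoderm factor switched on in the embryo, had 1.24 to 2.10 CPM in F01D4.5(baf20) worms and 0.310 to 0.727 CPM in N2 worms. The strains did not overlap, which held for 1.43% of all tested genes. edgeR gave a log2 fold change of 1.80 (SE 0.273, adjusted p = 0.0533). end-3 reached the filter's minimum count of 10 only in F01D4.5(baf20) worms, so it entered the test through the strain where it is high. Its lack of overlap and its p are therefore no support for a strain difference. The N2 values are close to the level of 3 counts, 0.271 to 0.331 CPM, so the size of that fold is uncertain. elt-7, the other tested gene, had 5.03 ± 2.06 CPM in F01D4.5(baf20) worms and 4.57 ± 1.85 CPM in N2 worms. Its log2 fold change was 0.13 (adjusted p = 0.962 by edgeR). The part of end-3 in the levels of the maternal genes was not tested.

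In each strain the library numbered 5 was the lowest in the maternal genes and the highest in moulting and cuticle genes. Relative to the mean of the other 4 libraries of its strain, replicate 5 lay 0.81 lower in F01D4.5(baf20) and 0.96 lower in N2 worms for the mean log2 CPM of the 7 genes. For oocyte surface and eggshell genes the shortfall was 0.67 in F01D4.5(baf20) and 0.92 in N2 worms, and for P granule and meiosis genes 0.60 in F01D4.5(baf20) and 0.62 in N2 worms. It was smaller for sperm formation genes, at 0.30 in F01D4.5(baf20) and 0.15 in N2 worms. The moulting and cuticle list lay the other way, 2.64 higher in F01D4.5(baf20) replicate 5 and 2.49 higher in N2 replicate 5. Its summed level was 551 CPM in F01D4.5(baf20) replicate 5 and 1189 CPM in N2 replicate 5, against 51.2 to 106 CPM in the other F01D4.5(baf20) and 62.8 to 245 CPM in the other N2 libraries. Among the other libraries, N2 replicate 2 was above the mean of the 10 libraries both in that list, by 0.51, and in the maternal genes, by 0.09. In N2 replicates 3 and 4 that list was above its mean (0.53 and 0.60) and the maternal genes below theirs (−0.07 and −0.06). N2 replicate 1 had −1.10 in that list and 0.33 in the maternal genes. F01D4.5(baf20) replicates 1 to 4 had −1.71 to −0.36 in that list and 0.05 to 0.51 in the maternal genes. Yolk genes of the adult intestine lay 0.19 higher in F01D4.5(baf20) replicate 5 and 0.52 lower in N2 replicate 5. mlt-11 and dpy-10 of the moulting and cuticle list had 0 counts throughout. Between the strains, where 53.2% of all tested genes were positive, the moulting and cuticle list was negative in 10 of 10 tested genes. Its median was −1.33. Standard errors of these genes were 0.17 to 1.21. Of the 10, 0 had an unadjusted p under 0.05 by edgeR, where 5.75% of all tested genes did. The part of that list in the higher means of the maternal genes in F01D4.5(baf20) worms was not tested.

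**Figure D5:**
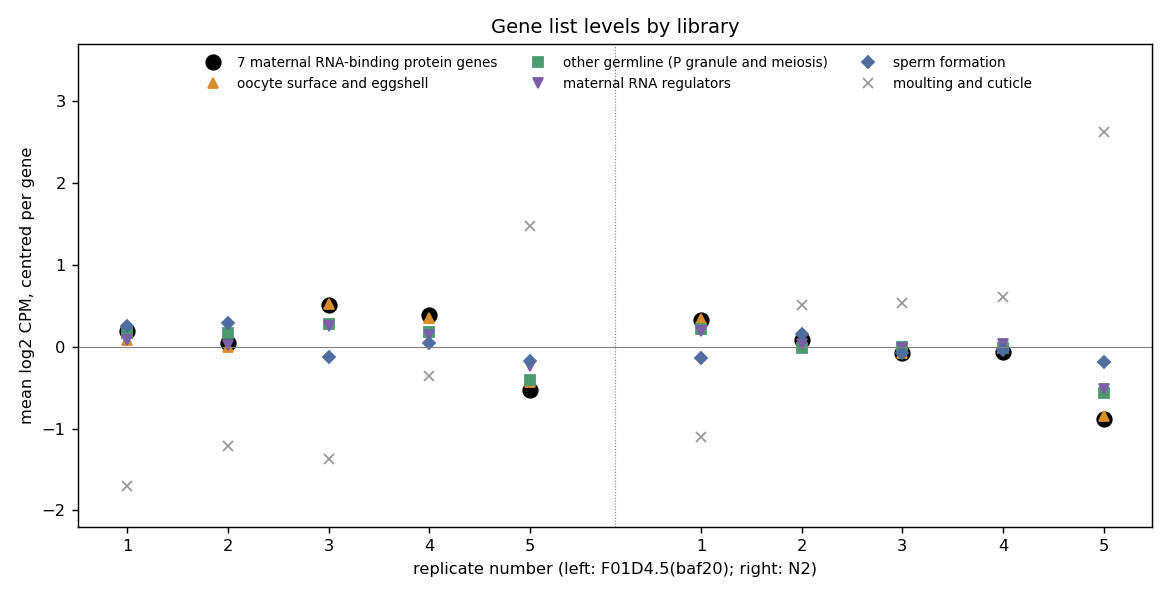
Mean log2 CPM of each gene list in each library, after each gene was centred on its mean over the 10 libraries (vertical axis), with F01D4.5(baf20) replicates at the left and N2 replicates at the right. The 7 genes (black) sit at −0.53 in F01D4.5(baf20) replicate 5 and −0.88 in N2 replicate 5, and the moulting and cuticle genes (crosses) at 1.48 in F01D4.5(baf20) replicate 5 and 2.63 in N2 replicate 5.

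The genes whose pattern over the 10 libraries was most like the mean of the 7 were found by the root mean square difference of centred log2 CPM among 9355 genes whose mean log2 CPM reached 2. The median of all those genes was 0.442. With the 7 genes left out, the closest were clec-87 at 0.0380, cpg-2 at 0.0399, gln-5 at 0.0530, egg-2 at 0.0565, clec-91 at 0.0586, nasp-2 at 0.0632, mei-2 at 0.0638 and egg-1 at 0.0696. cpg-2 encodes a chondroitin proteoglycan of the eggshell, egg-1 and egg-2 encode oocyte surface proteins needed for fertilization, and mei-2 encodes a subunit of the meiotic katanin. 3 of these 8 are on the oocyte surface and eggshell list. clec-87 averaged 1165 CPM in F01D4.5(baf20) worms and 965 CPM in N2 worms, and cpg-2 averaged 2196 CPM in F01D4.5(baf20) worms and 1939 CPM in N2 worms. Of the 7 genes themselves, which make up the mean and so are drawn towards it, mex-6 was closest at 0.0672 and puf-11 farthest at 0.125. Without the libraries numbered 5, clec-87, cpg-2 and nasp-2 were again among the closest 8 outside the 7 genes, and zif-1, the message of a ubiquitin ligase adaptor that OMA-1 and OMA-2 repress, was the third of these, at 0.0346.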

How the data were processed

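Messenger RNA of 10 whole-worm samples was sequenced from TruSeq Stranded libraries, per the labels' protocols. Per the submitters' processing notes, the tools were HISAT2, HTSeq, CASAVA and DESeq2 and the builds ce10 and ce11, with no versions. Neither the strand setting of the counting nor its annotation is given there. The deposited values are whole-number counts, not normalized, in 57827 rows per sample.

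Row names were matched to Ensembl release 115 on WBcel235 (57217 rows with 99.7% of counts) and summed per gene. Coordinates and exon lengths are from that annotation. The strain comparison used edgeR 4.0.16 (R 4.3.3): filterByExpr (minimum count 10, total 15), TMM, and the robust quasi-likelihood test with Benjamini-Hochberg adjustment over 12335 genes. log2 CPM used a prior count of 2. Within-library log2 ratios used counts + 0.5 and exact permutation tests (scipy 1.17.1). P-values set the strain difference against the spread between these libraries, which the tests take as independent samples.

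Counts were simulated for F01D4.5(baf20) against N2 (12335 genes, 200 changed). The test recovered 8% at a 1.5-fold change, 44% at 2-fold and 86% at both 4-fold and 8-fold, and 7.44% of calls were false. The simulated counts were drawn independently for each gene and library, without the shifts shared by many genes in these libraries. Those rates therefore need not hold for the data.

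The genes, lists and tests were chosen with earlier results of these data known. Named from each list were up to 4 genes with the smallest p, of which some are described, and the 8 genes most like the mean profile. Alternatives were DESeq2 1.42.0, its size factors, upper-quartile factors, no filter, a filter of 5 CPM in 5 libraries, a replicate block, removal of each library or of both numbered 5, and F01D4.5(baf20) replicates 1 and 2 added together. 2 of 149 list genes were not matched.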

Additional observations from a re-analysis of the deposited data

Results flagged for a closer look

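Among 24 groups of 5 values checked, 2 held a library whose gap to the nearest other library took up an unusually large share of the range, and chance gives about 1 such group in 20. Both were F01D4.5(baf20) replicate 5, one of the libraries that stood apart over all genes. Its mex-5 to mex-6 log2 ratio was 1.06, against 0.77 to 0.84 in the other 4 F01D4.5(baf20) libraries, a gap of 0.757 of the range. Its puf-11 to puf-3 log2 ratio was −0.19, against −0.35 to −0.31 in the other 4, a gap of 0.712 of the range.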

How the results depend on the processing

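The 7 tested genes stayed short of the adjusted threshold under all 18 alternatives of the fit, with 0 of 7 called in each. Their log2 fold changes stayed positive except that of mex-5 without N2 replicate 5 (−0.00199). Over the fits that left out 1 library, mex-5 ranged from −0.00199 to 0.26, pos-1 from 0.19 to 0.47, puf-11 from 0.19 to 0.45, oma-1 from 0.07 to 0.33, oma-2 from 0.05 to 0.37, mex-6 from 0.01 to 0.30 and puf-5 from 0.07 to 0.39. The number of the 7 at an unadjusted p under 0.05 was 2 without F01D4.5(baf20) replicate 5, where 16.4% of all genes had one, and 0 or 1 in the other fits that left out 1 library (3.61% to 7% of genes). It was 2 without both libraries numbered 5 (15.4% of genes) and 2 with the replicate block (11.4% of genes).

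Over all genes, 8 were called, against 33 with DESeq2, 5 with no filter on low counts, 18 without both libraries numbered 5, 2 with F01D4.5(baf20) replicates 1 and 2 summed, and 2 to 13 with 1 library left out. With 1 library left out, 13 were called without F01D4.5(baf20) replicate 5 and 4 without N2 replicate 5. F01D4.5 ranged from −1.88 to −1.61. The cause of these differences was not tested.

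The oma-1 to oma-2 difference in log2 ratio was −0.0205 and that of mex-5 to mex-6 −0.0499 without both libraries numbered 5, against 0.04 and 0.0009 with all libraries. With 1 library left out they ranged from −0.0370 to 0.0954 and from −0.0493 to 0.0237. In 13 of the 14 alternatives the permutations are too few for 1 ratio alone to pass after adjustment over the 4, with a smallest p of 0.0159 to 0.0625, so these say nothing about stability. The puf-11 to puf-3 ratio was higher in F01D4.5(baf20) in 5 of 5 same-numbered pairs, which gives the smallest p of the replicate block, and had an exact p of 0.0476 without N2 replicate 5 (adjusted p = 0.190). Same-numbered libraries correlated, in their deviations from the strain means, at −0.13 to 0.82, so the numbers were not taken as pairs. With the replicate block 6 genes were called over all genes, and puf-11 (0.32, adjusted p = 0.332 by edgeR) and pos-1 (0.33, adjusted p = 0.416) were those under 0.05 unadjusted. 1 of 5 F01D4.5(baf20) libraries, replicate 5, correlated best with its own number. What limits each value, depth or the spread between libraries, was not tested.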
